A study of Mus musculus with 35 samples.

Results

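The heart was compared with the brain, the cerebellum and the colon of adult C57BL/6J mice, gene by gene. The members are the 5 heart libraries of a series of 35 samples, of which 29 are short-read RNA-seq libraries. They were chosen by the tissue in their labels, as were the 6 libraries each of brain, cerebellum and colon that they were set against, so that 23 libraries entered the comparison. There were 3 female and 2 male heart libraries, and 3 female and 3 male libraries of each other tissue. Gonad libraries and long-read libraries of the same series were not part of it. All groups share the strain, the adult stage and the absence of any treatment, and no genotype or agent differs between them. Total RNA depleted of ribosomal RNA was sequenced, and the labels do not say which libraries came from one animal, whether animals were pooled or which chambers of the heart were taken, so the p-values measure the spread between these libraries. The value for each gene is the number of reads counted on it. Of 55356 counted genes, 25741 had enough reads to be tested, among them 16876 protein-coding genes, 4527 long noncoding RNA (lncRNA) genes and 1448 pseudogenes.

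The heart is a muscle that contracts without rest. Its working cells, the cardiomyocytes, are packed with sarcomeres, in which thick filaments of myosin slide along thin filaments of actin when calcium leaves the sarcoplasmic reticulum, and they draw most of their ATP from fatty acids burned in mitochondria. Neurons and glia make up the brain and the cerebellum, and the colon holds an epithelium and layers of smooth muscle, so each of the 3 tissues lacks cardiomyocytes. In bulk tissue, fewer cells of a type and less RNA per cell cannot be told apart.

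Total counts ran from 19590147 to 25062064 reads in heart and from 11742417 to 36194255 reads in the other tissues. The heart libraries were the most concentrated. Their 50 most counted genes took 37.2% ± 5.17 of all reads (SD, n = 5), against 21.1% ± 3.14 (SD, n = 18) in the other libraries, and the groups did not overlap (two-sided exact permutation test, p = 2.97e-05, the smallest possible here). Mitochondrially encoded genes took 11.2% ± 2.63 of the reads in heart and 3.43% ± 0.994 elsewhere, again with no overlap (exact permutation test, two-sided, p = 2.97e-05, n = 5 and 18). Fewer coding genes reached 1 FPKM in heart, 11098 ± 653 (SD, n = 5) against 12566 ± 259 (SD, n = 18; exact permutation test, two-sided, p = 8.92e-05). FPKM here is the read count scaled to the library total and to the length of the gene's exons. Because a few genes fill so much of a heart library, log2 differences were computed after scaling with the trimmed mean of M-values (TMM), which compares the bulk of genes. On this scale the difference of the median gene lies 0.58 above that computed from library totals, and every log2 difference below should be read with that shift in mind.

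One heart library, female heart replicate 3, was singled out because its summed adipocyte and atrial markers were the highest of the hearts. Its rank on those sums was therefore fixed by the choice. In female heart replicate 3 the 12 tested and 1 untested adipocyte marker genes summed to 8969 FPKM, against 423 to 545 FPKM in the other 4 heart libraries, and all 13 were highest in it. The summed markers of atrial cardiomyocytes stood at 5339 FPKM against 52.1 to 192 FPKM, and all 9 were highest in it. Markers of blood leukocytes summed to 1459 FPKM against 305 to 406 FPKM, those of fibroblasts to 1357 against 484 to 681 FPKM, and those of mesothelium, the lining of the heart's outer surface, to 211 against 64.3 to 96.6 FPKM. The general cardiomyocyte markers went the other way, with 8234 FPKM against 16068 to 18596 FPKM in the other 4, and the ventricular ones with 11244 against 21820 to 33660 FPKM. Lung epithelium markers summed to 37.4 FPKM in it and to at most 0.370 FPKM in the others, thymocyte markers to 12.6 FPKM against 0.248 to 6.37 FPKM. Its 50 most counted genes took 28.1% of the reads, against 38.3% to 40.6%. It was also the highest for the lists of colon epithelium (105 FPKM, others 28.1 to 38.2 FPKM), glia (38.7, others 6.33 to 7.71 FPKM), fast skeletal muscle (23.2, others 3.34 to 11.0 FPKM), smooth muscle (254, others 103 to 174 FPKM), the synapse (47.1, others 34.3 to 42.1 FPKM) and the cell cycle (75.3, others 35.6 to 44.9 FPKM). Those of Schwann cells and cardiac neurons were also highest in it, by little (4.81 FPKM, others 3.67 to 4.48 FPKM), and endothelial markers lay within the range of the others (156 FPKM, others 94.6 to 177 FPKM). All these sums are in FPKM, scaled to library totals. The factor by which TMM rescales a total was 1.08 in this library and 0.580 to 0.695 in the other hearts. On the TMM scale its sums would be lower relative to theirs. The orders given for the synapse, Schwann cells, smooth muscle, the cell cycle and endothelium hold in FPKM only. The part of these cell types in any single result was not tested, and the results that rest on this library are given with and without it.

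**Figure D1:**
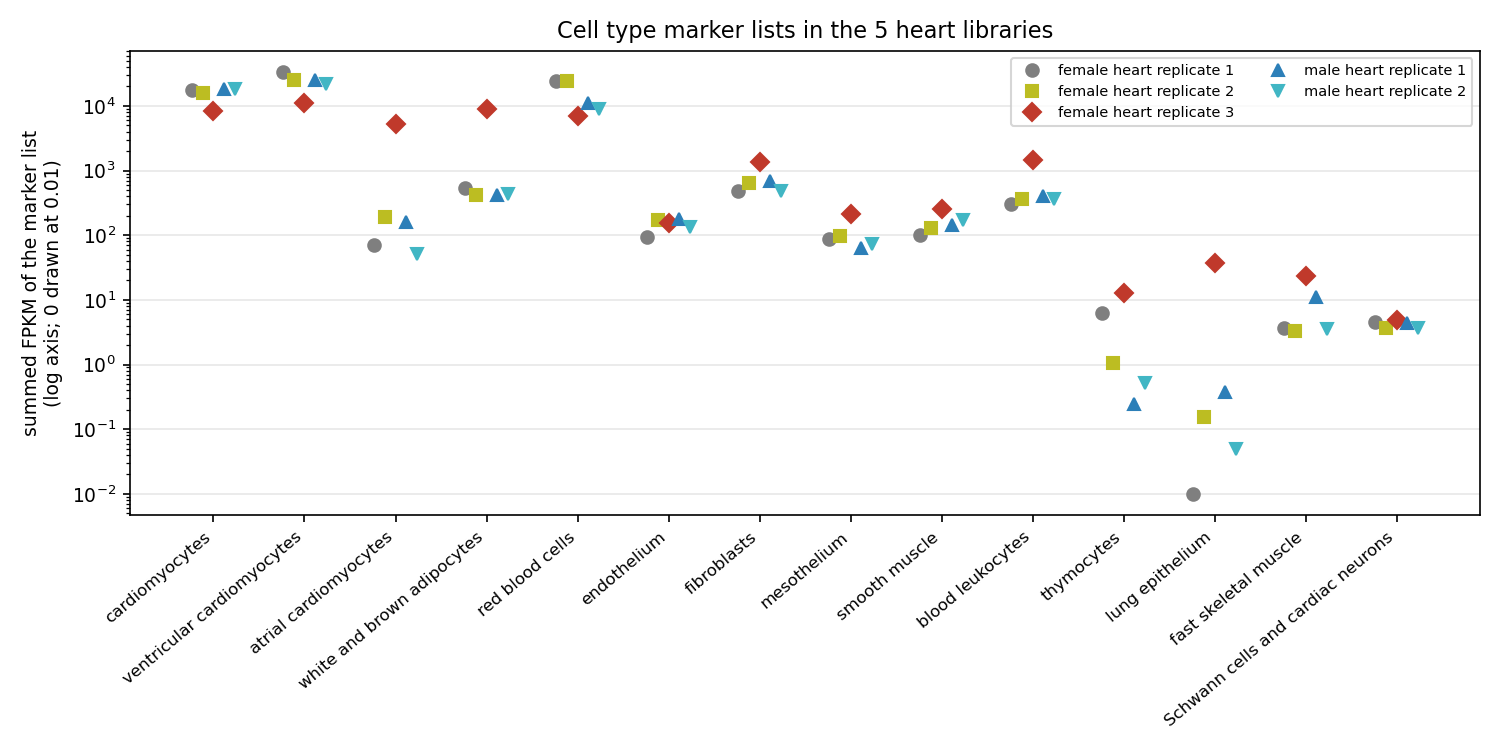
Summed FPKM (log axis) of the marker genes of 14 cell types, 1 point for each of the 5 heart libraries. Female heart replicate 3 (red diamonds) is the highest for adipocytes (8969 FPKM) and atrial cardiomyocytes (5339 FPKM), the lists by which it was singled out. It is the lowest for cardiomyocytes (8234 FPKM) and ventricular cardiomyocytes (11244 FPKM).

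The heart differed from the mean of the other tissues, each weighted equally, in most coding genes. By the quasi-likelihood test of edgeR, with p-values adjusted over all 25741 genes (Benjamini-Hochberg), 5978 coding genes were higher in heart (35.4% of those tested) and 6055 were lower (35.9%) at an adjusted p below 0.05. Among the genes that were higher, 3449 differed by at least 2-fold, 1605 by at least 4-fold and 413 by at least 16-fold, and among those that were lower 3907, 2487 and 1251 did. The median log2 difference was -0.10 over coding genes and -0.24 over all genes tested. Over all genes 7422 were higher (28.8%) and 7984 lower (31.0%). Scaling by library totals instead left 3433 coding genes higher and 9092 lower, and the share of all calls that were higher went from 48.2% to 26.2%. Taken tissue by tissue, 6086 coding genes were higher in heart than in brain (36.1%), 6054 than in cerebellum (35.9%) and 5900 than in colon (35.0%).

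A mean over 3 unlike tissues can be carried by one of them. Of the 5978 coding genes that were higher than the mean, 3218 were also higher than each tissue on its own, and 677 were lower in heart than in at least 1 of the tissues. Of the 6055 that were lower than the mean, 2449 were lower than each, and 790 were higher than at least 1. A stricter call asked in addition that all 5 heart libraries lie beyond all 18 others on the TMM scale. It was met upward by 1834 coding genes (10.9% of those tested) and downward by 1213 (7.19%), and these are the genes called higher or lower than each tissue below.

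Several genes of the sarcomere and those of myoglobin and a creatine kinase were among the 12 furthest above the other tissues by fitted difference. *Csrp3* (chr7:48830401-48848034, minus strand, mm10), which encodes muscle LIM protein of the Z-disc, had 1706, 1238 and 785 FPKM in the 3 female and 1483 and 1234 FPKM in the 2 male heart libraries. The highest of the 18 other libraries had 0.467 FPKM and the median was 0 in brain. At least 1 group of a tissue and sex had no read at all, so its log2 difference is a lower bound: it was at least 14.38 when every such group was given 3 reads. *Myh6* (chr14:54941921-54966576, minus strand), the alpha myosin heavy chain that drives the adult mouse heart, had 3441, 4474 and 1789 FPKM in female and 4951 and 4720 FPKM in male hearts. It ran from 0.0439 to 0.792 FPKM elsewhere, a log2 difference of 14.75 ± 0.41 (SE, edgeR adjusted p = 1.63e-17). Heart and the other tissues did not overlap in either gene, and female heart replicate 3 was the lowest heart library in both.

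The myosin light chains, cardiac actin and myoglobin were the most abundant of these. *Myl2*, the ventricular regulatory light chain, had the highest FPKM of all coding genes in heart, with 26321, 19128 and 8547 FPKM in female and 19096 and 15549 FPKM in male libraries. The other tissues held 0.503 to 6.64 FPKM of it, which gave a log2 difference of 13.98 ± 0.41 (edgeR adjusted p = 8.32e-17). *Mb*, the oxygen-storing myoglobin, had 6425 to 16036 FPKM in heart, against at most 5.58 FPKM elsewhere (log2 difference 13.72 ± 0.40). *Actc1* (cardiac actin; 3150 to 8060 FPKM) differed by 14.04 ± 0.46, *Myl3* (ventricular essential light chain; 2691 to 7330 FPKM) by 14.03 ± 0.44 and *Ckmt2* (the mitochondrial creatine kinase of muscle; 609 to 1607 FPKM) by 13.52 ± 0.31. In all 5 the lowest heart library was female heart replicate 3, and it still lay above all 18 other libraries. Without that library the differences were 14.19, 13.92, 14.23, 14.24 and 13.73, in the order named.

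The other genes among the 12 with the largest fitted differences were *Nppb*, *Lmod2*, *Myoz2*, *Ankrd1* and *Dhrs7c*. *Nppb*, which encodes the hormone precursor of B-type natriuretic peptide, had 108, 159 and 123 FPKM in female and 153 and 139 FPKM in male hearts. The median was 0 in brain and in colon and the highest of the 18 others had 0.436 FPKM, and its log2 difference was at least 11.47 with groups without reads set at 3 reads. *Lmod2*, an actin filament regulator (151 to 322 FPKM), differed by 13.02 ± 0.30, *Myoz2*, a Z-disc protein that binds calcineurin (1046 to 2495 FPKM), by 12.83 ± 0.26, and *Ankrd1*, a titin-linked stress-response protein (243 to 534 FPKM), by 12.73 ± 0.39. *Dhrs7c*, a dehydrogenase of the sarcoplasmic reticulum (39.2 to 79.1 FPKM), differed by at least 11.68. The 12 were taken by fitted difference among 1223 coding genes that were higher than each tissue and averaged at least 10 FPKM in heart. For *Csrp3*, *Nppb* and *Dhrs7c*, which have a group without reads, the bound lies below the fitted value and does not fix their place in that order.

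**Figure D2:**
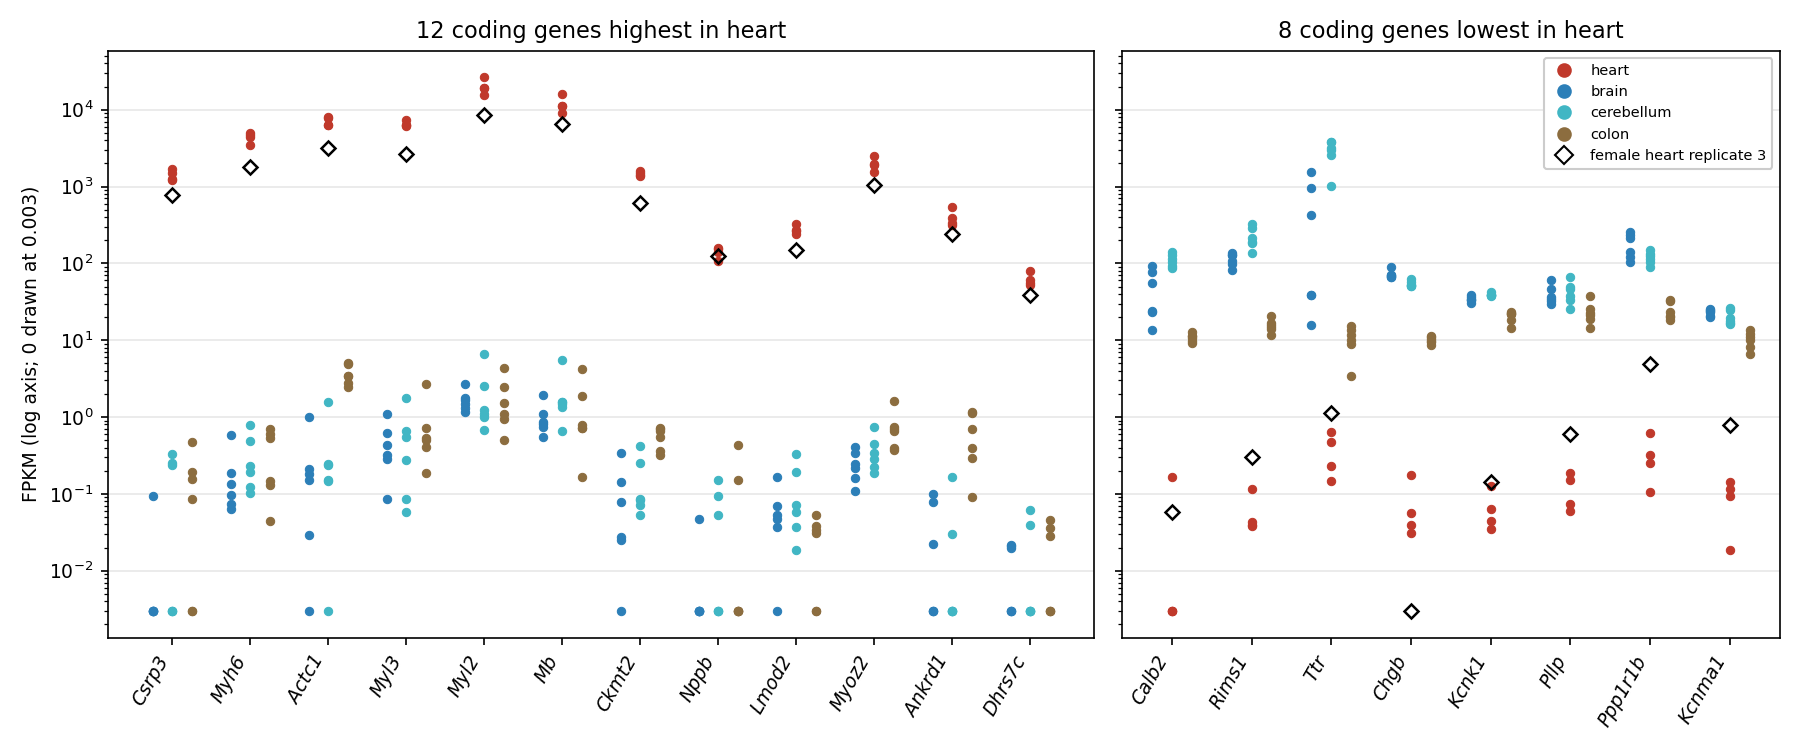
FPKM (log axis, values of 0 drawn at 0.003) in each of the 23 libraries for the 12 coding genes with the largest fitted differences upward (left) and the 8 with the largest downward (right), heart in red, the other tissues side by side. No heart point overlaps another tissue in any of the 20 genes, and female heart replicate 3 (open diamonds) is the lowest heart library in 11 of the 12 genes on the left.

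The 10 most abundant coding loci of the heart were *Myl2*, *Hbb-bs* (a beta globin of red blood cells), *Mb*, the mitochondrial locus that runs from mt-Nd1 to mt-Nd4l, *Actc1*, *Myl3*, the mt-Nd5 and mt-Cytb locus, *Fabp3* (the fatty acid carrier of heart muscle), *Myh6* and *Tnnt2* (cardiac troponin T). *Hbb-bs* averaged 12113 ± 7082 FPKM (SD, n = 5) in heart, with 20274 and 19299 FPKM in female replicates 1 and 2 and 5619 to 8405 FPKM in the other 3. The 5 red cell genes were all higher than each tissue, with a median log2 difference of 5.65, against 10.9% of all coding genes, and their part in the other results was not tested. *Fabp3* had 6070, 4006, 1987, 3718 and 4167 FPKM in the 5 heart libraries (female first) and 2.99 to 80.8 FPKM elsewhere, a log2 difference of 8.02 ± 0.20 (edgeR adjusted p = 5.06e-19).

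The promoters of 4 of the 12 genes are shown because they hold sequence motifs of factors known from heart and muscle. Promoters are the 250 bases upstream of the RefSeq start in GRCm38.p6, and capitals mark the matches. For 7 of the 12 genes that start lay within 50 bases of the counted one, and *Csrp3*, *Ckmt2* and *Lmod2* held none of the motifs searched.
Myh6: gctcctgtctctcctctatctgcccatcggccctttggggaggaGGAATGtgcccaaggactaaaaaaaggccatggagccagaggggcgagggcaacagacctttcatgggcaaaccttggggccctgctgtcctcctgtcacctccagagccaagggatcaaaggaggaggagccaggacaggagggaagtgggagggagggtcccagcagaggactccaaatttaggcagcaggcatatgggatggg
Myl3: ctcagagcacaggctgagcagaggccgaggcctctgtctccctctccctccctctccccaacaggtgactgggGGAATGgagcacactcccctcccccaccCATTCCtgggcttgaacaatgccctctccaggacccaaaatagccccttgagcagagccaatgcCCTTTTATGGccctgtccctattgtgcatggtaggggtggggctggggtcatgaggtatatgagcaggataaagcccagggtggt
Myoz2: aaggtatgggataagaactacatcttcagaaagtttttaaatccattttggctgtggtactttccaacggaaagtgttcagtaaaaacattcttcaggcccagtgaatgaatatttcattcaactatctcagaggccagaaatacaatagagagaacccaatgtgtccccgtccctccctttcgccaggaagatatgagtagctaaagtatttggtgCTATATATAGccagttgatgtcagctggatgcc
Ankrd1: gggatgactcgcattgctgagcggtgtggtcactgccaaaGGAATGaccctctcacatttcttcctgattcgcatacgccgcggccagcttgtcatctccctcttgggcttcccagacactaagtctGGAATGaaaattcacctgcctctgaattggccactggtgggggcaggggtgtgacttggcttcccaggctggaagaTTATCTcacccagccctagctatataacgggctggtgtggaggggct

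The *Myh6* promoter (chr14:54966608-54966857, minus strand) holds GGAATG, the core that TEAD factors read, 206 bases before the start. That of *Myl3* (chr9:110763428-110763677, plus strand) holds it 177 and 149 bases before the start, and a CArG box, the element of serum response factor, 85 bases before it. In *Myoz2* (chr3:123034988-123035237, minus strand) the consensus of the MEF2 factors lies 33 bases before the start. *Ankrd1* (chr19:36119845-36120094, minus strand) has the GATA-type motif AGATAA at 47 bases and GGAATG at 210 and 123 bases. Both strands were searched, which is why some matches read as the reverse complement, and the MEF2 consensus can overlap the TATA box it resembles.

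Over all genes the motifs were less selective than these examples. A promoter was found for 13153 of the 16876 coding genes tested and for 1440 of the 1834 that were higher than each tissue. The share holding GGAATG was 10.8% of all and 12.7% of the higher ones, that holding AGATAA was 6.45% and 6.18%, and that holding TATAAA 7.77% and 8.89%. The MEF2 consensus stood in 1.70% and 3.61%, the CArG box in 1.23% and 1.53%, and TNAAGGTCA, the long form read by estrogen-related receptors, in 0.745% and 0.694%. In the 260 promoters of genes higher than each tissue by at least 16-fold, a subset chosen after its values were seen, the shares were 11.9% for MEF2, 4.23% for CArG, 13.8% for AGATAA, 15.8% for GGAATG and 21.5% for TATAAA. Their median GC content was 54.4%, against 58.8% over all promoters, and most of these motifs are themselves rich in A and T. A match is a stretch of letters and not a measured binding site.

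*Myh6* and its neighbour *Myh7* also carry microRNAs in their introns, shown because the pair shares its seeds. Capitals mark the seed, bases 2 to 8, of the RefSeq mature sequences (GRCm38.p6).
mmu-miR-208a-3p: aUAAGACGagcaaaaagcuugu
mmu-miR-208b-3p: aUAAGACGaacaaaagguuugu
mmu-miR-208a-5p: gAGCUUUUggcccggguuauac
mmu-miR-208b-5p: aAGCUUUUugcucgcguuaugu
The 2 mature 3p forms have the same seed, and so have the 5p forms. Mir208a lies in *Myh6* (the 3p form at chr14:54949072-54949093) and Mir208b in *Myh7* (chr14:54975710-54975731), both on the minus strand. Their hosts differed in level: *Myh7*, the slow beta myosin heavy chain, had 19.1, 24.7, 14.1, 16.6 and 13.7 FPKM in the heart libraries, far below *Myh6*. It was higher than each tissue (log2 difference 5.86 ± 0.25, edgeR adjusted p = 5.59e-15), although brain held 5.54 to 8.46 FPKM. The microRNAs themselves were not measured in these libraries. Of 1005 hairpins in the table, 588 lay within a tested gene 46 of these (7.82%) within 43 hosts that were higher in heart than each tissue and 44 (7.48%) within 36 hosts that were lower. Over all genes tested 8.69% were higher than each tissue and 5.36% lower.

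The transcription factors that set up cardiac identity were nearly absent from the other tissues for several members, at modest levels in heart. Of 21 cardiac transcription factors and coactivators, 19 were higher in heart than the mean and none was lower, with a median log2 difference of 2.25 against -0.24 over all genes tested, and 9 were higher than each tissue. Of all coding genes 35.4% were higher than the mean and 10.9% higher than each tissue. *Gata4*, a zinc finger factor of early heart development, had 15.2, 25.8 and 13.5 FPKM in female and 20.9 and 22.6 FPKM in male hearts and at most 0.152 FPKM elsewhere (log2 difference at least 11.11). *Tbx5*, a T-box factor of chamber and limb formation, had 7.51, 8.83 and 13.4 FPKM in female and 9.25 and 9.76 FPKM in male hearts and no read in colon (at least 10.49). *Nkx2-5*, the homeobox factor of heart progenitors, had 8.42 to 16.4 FPKM in heart and no read in brain or colon (at least 9.17). None of these overlapped another tissue, and female heart replicate 3 was the highest of the 5 for *Tbx5* and the lowest for *Nkx2-5*. Others were shared with the compared tissues. *Hand2* had 12.8 to 23.9 FPKM in heart and 7.32 to 14.2 FPKM in colon, while its relative *Hand1* was nearly absent from adult heart (at most 0.0274 FPKM) and stood at 4.72 to 22.0 FPKM in colon. *Mef2c* was lower in heart (8.06 to 11.2 FPKM) than in brain (50.8 to 89.7 FPKM) and did not differ from the mean (log2 difference 0.15 ± 0.15, adjusted p = 0.417), and its sign turned to -0.47 under library totals. The nuclear receptor *Ppara*, which turns on fatty acid oxidation genes, was higher than each tissue (2.59 ± 0.13), and its coactivator *Ppargc1a*, with 8.03 to 14.1 FPKM in heart, overlapped the brain libraries at 9.07 to 10.7 FPKM. Without female heart replicate 3, 15 of the 21 were higher than each tissue, and the share over all coding genes rose to 17.3%.

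The contractile apparatus was higher in nearly all of its genes. All 14 genes of the thick filament, M-band and titin were higher in heart (median log2 difference 10.48, or 10.24 with groups without reads at their bound), 10 of 11 thin filament genes were higher (median 11.05) and all 15 Z-disc genes were (median 8.22). Higher than each tissue were 11, 9 and 13 of them, where 10.9% of all coding genes were. *Ttn*, the giant spring of the sarcomere, had 139 to 248 FPKM in heart and at most 0.403 FPKM elsewhere (11.25 ± 0.33), *Tnnc1*, the calcium sensor troponin C, had 2107 to 4910 FPKM and at most 15.7 FPKM (11.05 ± 0.26), and *Actn2*, the Z-disc crosslinker, had 315 to 910 FPKM and at most 12.4 FPKM (9.79 ± 0.28). *Tnni1*, the slow skeletal and fetal troponin I, was the exception and was lower in heart, with 0.0404 to 0.613 FPKM against 0.587 to 4.79 FPKM (-2.90 ± 0.40, edgeR adjusted p = 1.21e-06), with female heart replicate 3 as the library that overlapped. *Des*, the intermediate filament desmin, is shared with smooth muscle. It had 518 to 1409 FPKM in heart and 617 to 1839 FPKM in colon, so that its difference of 7.02 ± 0.23 came from brain (10.57) and cerebellum (9.75) and not from colon (0.73).

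At the intercalated disc, which joins cardiomyocytes end to end, some genes were shared with the colon. All 9 genes were higher than the mean (median 3.20), and 3 were higher than each tissue, or 5 without female heart replicate 3. Of all coding genes 35.4% were higher than the mean and 10.9% higher than each tissue, or 17.3% without that library. *Xirp2*, an actin-binding repeat protein of the disc, had 18.4 to 23.3 FPKM in heart and at most 0.176 FPKM elsewhere, a difference of at least 10.08. The desmosomal cadherins *Dsg2* and *Dsc2* were higher in heart than in brain (4.39 and 6.23) and cerebellum (4.30 and 6.51) and lower than in colon (-2.98 and -2.45), where desmosomes hold the epithelium. *Gja1*, the gap junction protein connexin 43, had 37.0 to 45.6 FPKM in heart, 43.0 to 61.8 FPKM in brain, 56.6 to 69.2 FPKM in cerebellum and 8.04 to 11.8 FPKM in colon. Its log2 difference of 0.98 ± 0.11 was made of 0.26 against brain, 0.08 against cerebellum and 2.61 against colon. In FPKM, scaled to library totals, heart lay below cerebellum and met brain only at its lower end. The positive sign against cerebellum thus rests on the TMM scaling.

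Calcium handling and electrical excitation had smaller medians than the contractile lists. Of all coding genes 35.4% were higher than the mean, 35.9% lower and 10.9% higher than each tissue. Of 18 calcium handling genes 16 were higher and 2 lower than the mean (median 4.04), 9 of them higher than each tissue. *Pln*, which brakes the calcium pump, had 2748, 2024 and 1368 FPKM in female and 1936 and 2347 FPKM in male hearts, at most 12.1 FPKM elsewhere and a difference of 10.81 ± 0.26. *Fkbp1b*, which binds the calcium release channel, was lower, with 0.380 to 1.64 FPKM in heart against 12.9 to 15.7 FPKM in brain (-1.88 ± 0.26, edgeR adjusted p = 8.94e-07). Of 25 ion channel and conduction genes 22 were higher and 2 lower than the mean (median 2.67), 9 were higher than each tissue and 1 was lower. Under library totals 4 were lower than the mean. The transient outward channel *Kcnd3* was lower than each tissue (0.738 to 1.06 FPKM in heart, at most 8.11 FPKM elsewhere, -1.75 ± 0.16). The pacemaker channel *Hcn4* was higher than the mean (1.78 ± 0.18) and had 0.565 to 1.14 FPKM in heart, which overlapped the 0.0696 to 1.09 FPKM of the other tissues.

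All 13 cardiac hormone and receptor genes were higher than the mean (median 2.56), 9 of them higher than each tissue, against 35.4% and 10.9% of all coding genes. *Corin*, the protease that processes atrial natriuretic peptide, had 16.7 to 25.2 FPKM in heart, 0 to 0.158 FPKM in brain and colon and 1.25 FPKM (median) in cerebellum (7.44 ± 0.21). *Agtr1a*, the angiotensin receptor, had 9.89 to 20.2 FPKM against at most 5.60 FPKM (5.65 ± 0.24) and *Adra1b*, an alpha-1 adrenoceptor, 4.09 to 8.39 against at most 3.33 FPKM (4.05 ± 0.20). *Npr3*, the receptor that clears natriuretic peptides, had 10.5 to 29.2 FPKM against at most 3.85 FPKM (3.90 ± 0.17). The groups did not overlap for any of these 4.

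**Figure D3:**
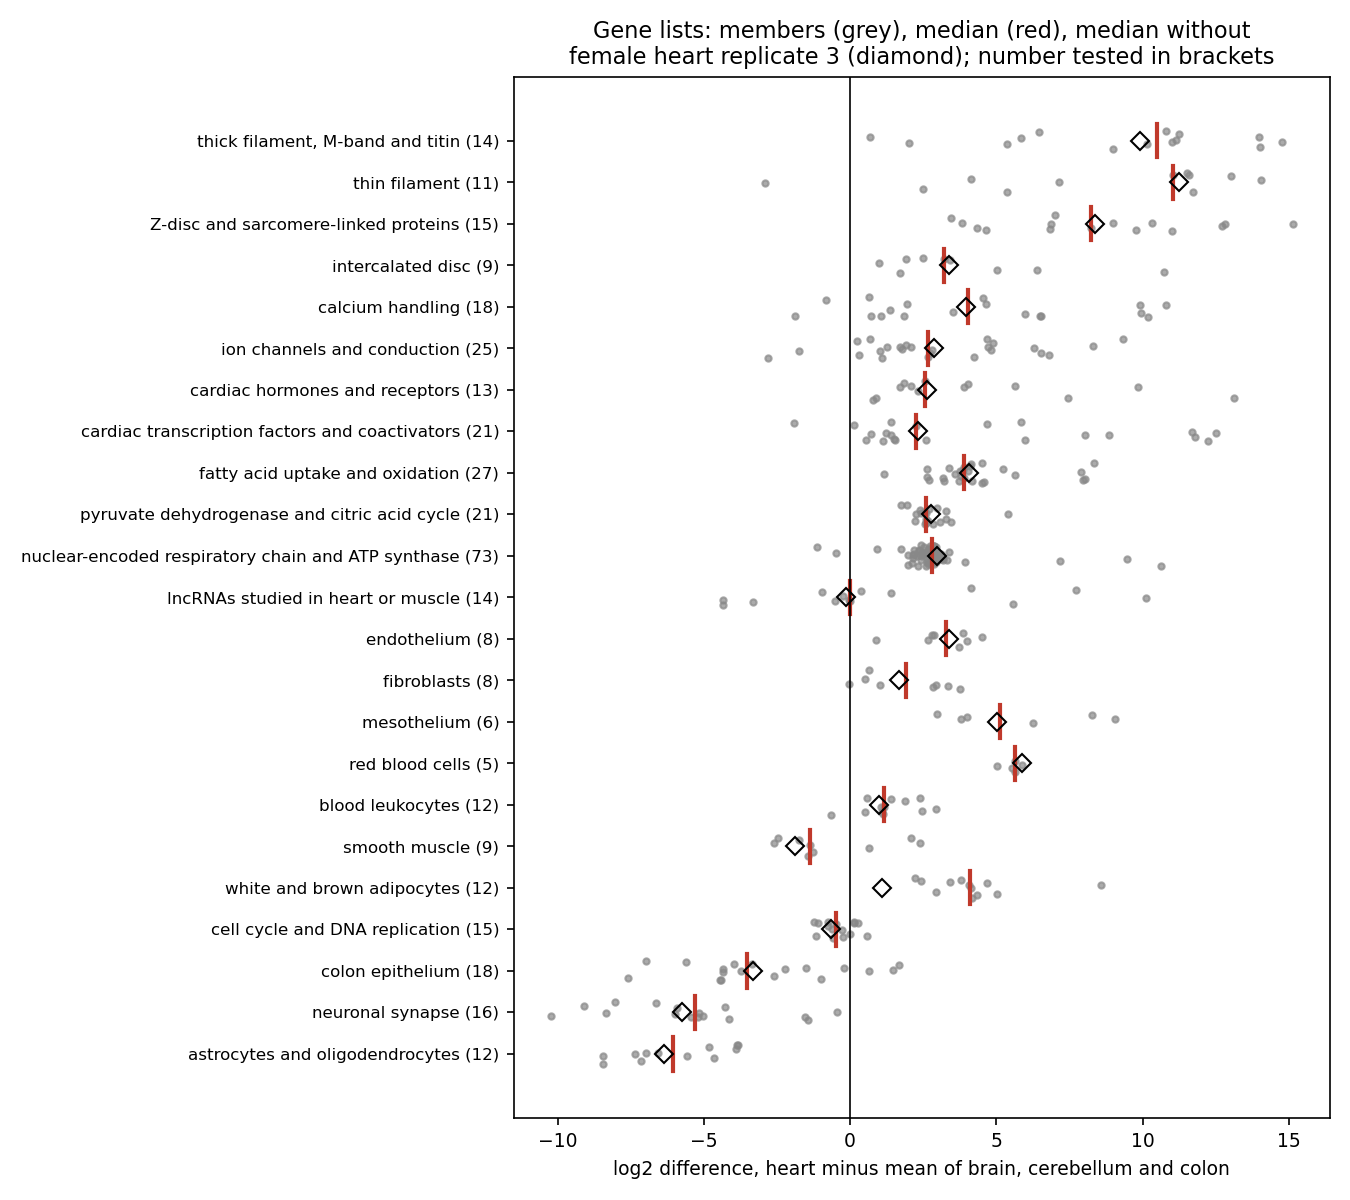
Log2 difference, heart minus the mean of brain, cerebellum and colon, for the tested members of 23 gene lists (grey points), with the list's median (red line) and its median without female heart replicate 3 (diamond). The contractile lists have medians between 8.22 and 11.05, the neuronal synapse list -5.31, and the median of the adipocyte list moves from 4.11 to 1.10.

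Genes of fuel use were higher almost without exception. All 27 genes of fatty acid uptake and oxidation were higher than the mean (median 3.90) and 24 were higher than each tissue. *Cd36*, the fatty acid transporter, had 270, 301 and 324 FPKM in female and 408 and 370 FPKM in male hearts and at most 21.8 FPKM elsewhere (7.95 ± 0.17). *Cpt1b*, the gate of fatty acids into muscle mitochondria, had 80.0 to 192 FPKM and at most 1.67 FPKM (8.35 ± 0.19). *Acads* and *Slc25a20*, an acyl-CoA dehydrogenase and the carnitine carrier, were not above colon, where *Acads* had 44.6 to 124 FPKM against 53.4 to 77.4 FPKM in heart. Of 21 genes of pyruvate dehydrogenase and the citric acid cycle all were higher than the mean (median 2.61) and 20 than each tissue, led by *Idh2* with 142 to 309 FPKM against at most 17.5 FPKM (5.41 ± 0.17). *Suclg2* was the gene that overlapped colon. Of 73 tested genes for the nuclear-encoded respiratory chain and ATP synthase, 71 were higher and 2 lower than the mean (median 2.79), and 69 were higher than each tissue. The 3 mitochondrially encoded loci were higher than each tissue, with log2 differences from the mean of 1.94 to 2.60. Against 35.4% of all coding genes higher than the mean and 10.9% higher than each tissue, these lists were thus called higher for nearly all of their members, and under library totals 27 of 27, 21 of 21 and 70 of 73 were called higher.

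Many muscle proteins have a paralog that does the same work in other tissues, and 20 such pairs were set side by side. The muscle form was higher in heart than the mean in all 20, and higher than each tissue in 17. Of all coding genes 35.4% were higher than the mean, 35.9% lower and 10.9% higher than each tissue. The other form was lower in 13, higher in 3 and not called in 4. One of the 3, *Cox7a2*, was counted on a locus merged with *Tmem30a*, so its value (0.92 ± 0.17) is not its own. Creatine kinase, which buffers ATP, is an example of both. *Ckm*, the muscle form, had 1733, 1803 and 641 FPKM in female and 1424 and 1689 FPKM in male hearts (10.34 ± 0.35), and *Ckb*, the brain form, had 10.5 to 16.1 FPKM in heart against 55.0 to 963 FPKM elsewhere (-4.23 ± 0.22). The muscle form made up 97.8% to 99.4% of the pair's FPKM in heart at most 0.176% in brain and 19.7% to 32.1% in colon. The mitochondrial pair *Ckmt2* and *Ckmt1* gave 99.5% to 99.9% in heart and at most 0.866% elsewhere, with *Ckmt1* at -5.36 ± 0.21.

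Pairs of this kind were also seen in the respiratory chain, in glucose entry and in the ribosome. *Cox6a2*, the muscle subunit of cytochrome c oxidase, had 787 to 2582 FPKM in heart and at most 10.3 FPKM elsewhere (10.62 ± 0.26), while *Cox6a1* was lower in heart (66.0 to 150 FPKM against 164 to 503 FPKM, -1.12 ± 0.17) and *Cox8a* was too (-0.47 ± 0.15). These were the 2 respiratory genes that were lower. *Slc2a4*, the insulin-responsive glucose transporter GLUT4, had 57.4 to 68.6 FPKM (5.12 ± 0.14), and *Slc2a1*, the transporter of barrier tissues, 2.46 to 4.10 FPKM against 11.4 to 120 FPKM (-2.42 ± 0.18). *Rpl3l*, the muscle form of ribosomal protein L3, had 258, 198 and 82.7 FPKM in female and 213 and 230 FPKM in male hearts and at most 0.650 FPKM elsewhere (10.22 ± 0.31). It made up 22.1% to 68.3% of the pair with *Rpl3*, the lowest share being that of female heart replicate 3, where *Rpl3* was highest (291 FPKM against 107 to 143 FPKM). In 16 of the 20 pairs the share of the muscle form did not overlap between heart and the other libraries. *Acacb* and *Acaca*, which make malonyl-CoA for the control of oxidation and for fatty acid synthesis, were 1 of the 4 that overlapped: *Acaca* had 190 FPKM in female heart replicate 3 and 2.03 to 2.96 FPKM in the other 4, and the share of *Acacb* fell there to 16.7%.

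**Figure D4:**
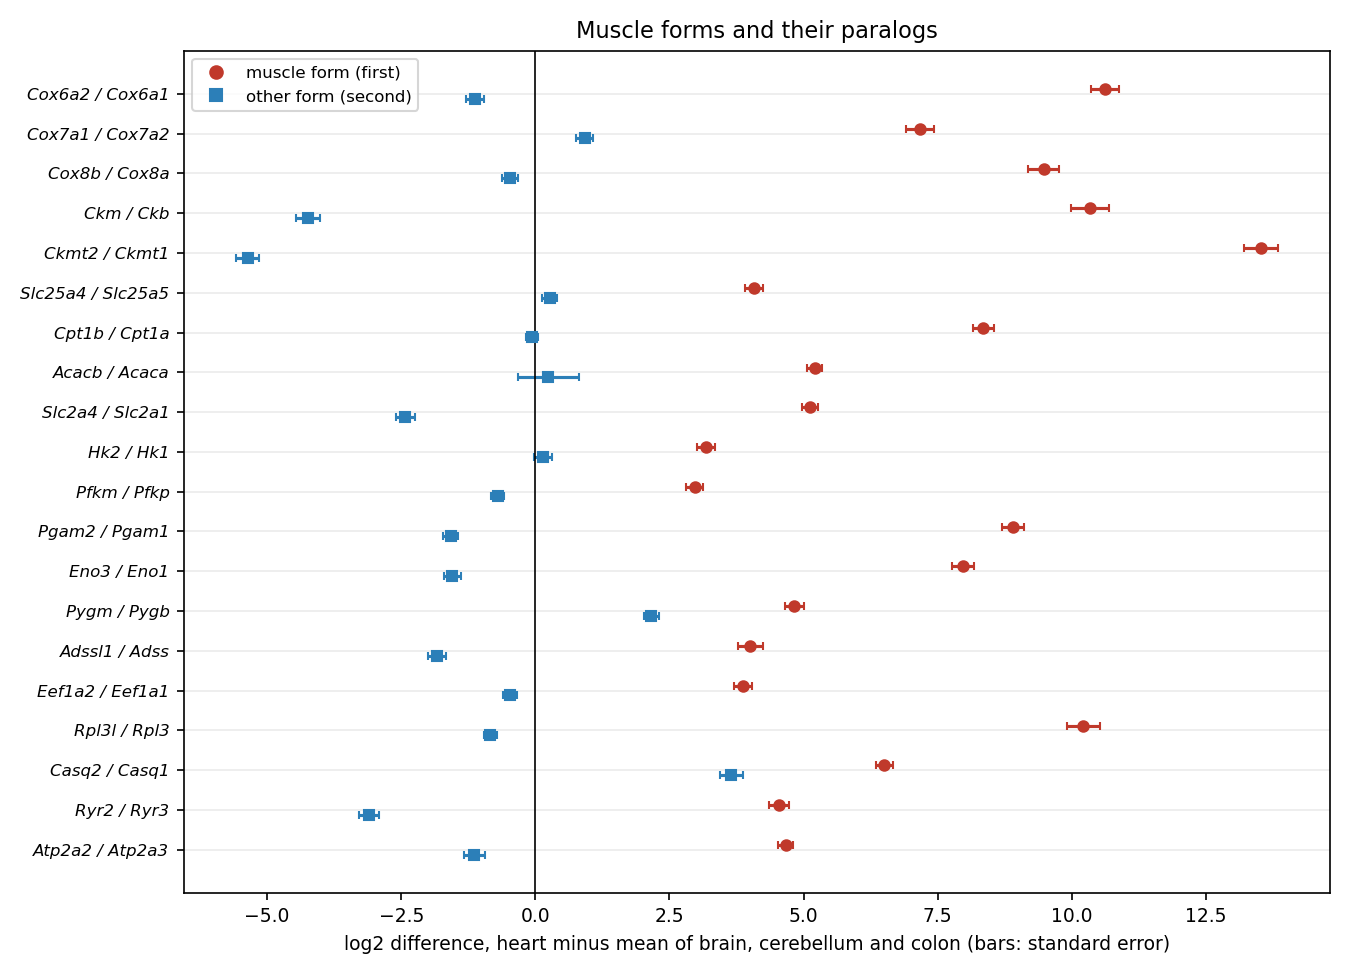
Log2 difference, heart minus the mean of the 3 tissues, with its standard error, for the muscle form (red) and the other form (blue) of 20 paralog pairs. All red points lie above 0, and 13 blue points lie below it with an adjusted p below 0.05, the lowest being *Ckmt1* at -5.36. *Cox7a2* is drawn at the value of a locus merged with *Tmem30a*.

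The lncRNAs were more often lower than higher against the mean and more often higher than lower against each tissue. Of 4527 tested, 921 were higher (20.3%) and 1136 lower (25.1%) than the mean, 312 were higher than each tissue (6.89%) and 119 lower than each (2.63%). Their median log2 difference was -0.49. The 6 with the largest fitted differences among 259 that averaged at least 1 FPKM in heart were 1700119I11Rik, Gm49540, Gm49130, Gm15543, Gm49477 and Gm13938. Gm49540 (chr15:77014093-77015898, plus strand) had 7478, 5177 and 2969 FPKM in female and 3819 and 5036 FPKM in male hearts, at most 2.95 FPKM elsewhere and a log2 difference of 13.20 ± 0.34 (edgeR adjusted p = 7.30e-18). It lies opposite *Mb*, and 64.3% of its exon bases overlap *Mb* exons on the other strand. Its FPKM was 42.1% to 47.0% of that of *Mb* in every heart library. Gm49130 lies opposite *Myh6* (16.1% of its bases; 288 to 830 FPKM; 12.36 ± 0.32), 1700119I11Rik opposite *Ckmt2* (20.7%; 263 to 853 FPKM; at least 12.20) and Gm13938 opposite *Ttn* (91.9%; 448 to 925 FPKM; 11.71 ± 0.26). The libraries keep strand, but whether the counting used the strand was not stated in the sources used here, so reads of such a pair cannot be told apart.

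The remaining 2 of the 6 do not overlap a coding exon. Gm15543 (chr6:145182275-145187630, plus strand) lies within *Casc1*, on the other strand. It had 221 FPKM in female heart replicate 1 and 82.8 to 107 FPKM in the other heart libraries, at most 0.236 FPKM elsewhere and a difference of at least 10.46. Gm49477 (chr15:103135881-103140669, plus strand), 12622 bases from *Smug1*, had 42.0, 27.4 and 13.1 FPKM in female and 19.8 and 20.7 FPKM in male hearts. It had no read in any cerebellum or colon library, and its difference was at least 9.37.

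Of the lncRNAs that were higher than each tissue, 52.6% lay within the span of a coding gene, against 54.7% of all lncRNAs tested. For 157 of the 312 that were higher than each tissue (50.3%), the nearest tested coding gene was higher than each tissue too, against 9.94% over all lncRNAs tested. An exon of a coding gene on the opposite strand was overlapped by 145 of the 312 (46.5%, against 35.9% of all), and for 116 of these the overlapped gene was itself higher than each tissue, as it was for 201 of the 1625 such lncRNAs among all tested. Another 167 of the 312 overlapped no such exon.

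Among 14 tested lncRNAs studied in heart or muscle, 5 were higher and 5 lower than the mean (median -0.02, and -0.49 over all lncRNAs), and 4 were higher than each tissue. Of all lncRNAs 20.3% were higher and 25.1% lower than the mean, and 6.89% higher than each tissue. Under library totals 8 of the 14 were lower than the mean. Those lower than each tissue went from 0 to 4 without female heart replicate 3, and the share over all lncRNAs went from 2.63% to 3.92%. *Hand2os1*, transcribed next to *Hand2*, had 70.7, 56.7 and 39.0 FPKM in female and 62.2 and 50.9 FPKM in male hearts, no read in brain or cerebellum and 6.18 to 9.28 FPKM in colon (at least 8.25). *Mhrt*, a transcript antisense to the *Myh7* region, had 35.2 to 165 FPKM in heart and at most 9.40 FPKM elsewhere (7.73 ± 0.27). *H19*, an imprinted growth regulator, had 20.9 to 94.4 FPKM against at most 7.92 FPKM (5.57 ± 0.24), and Mir133a-1hg, the host of a muscle microRNA, 4.44 to 14.5 FPKM against at most 1.51 FPKM (4.14 ± 0.39). *Fendrr* was lower (at most 0.138 FPKM in heart, 2.23 to 5.84 FPKM in colon, difference at most -2.06), as were the imprinted *Meg3* (-3.30 ± 0.27) and the nuclear *Malat1* (-0.51 ± 0.19, adjusted p = 0.0251). For *Malat1* 4 heart libraries had 214 to 251 FPKM and female heart replicate 3 had 1019 FPKM, and the difference was -0.83 without it.

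Pseudogenes are the subject of the series. Of 1448 tested 231 were higher (16.0%) and 202 lower (14.0%) than the mean, and 40 (2.76%) and 9 (0.622%) were higher or lower than each tissue. Of those tested with and without female heart replicate 3, 39 were higher than each tissue with it and 72 without it, and 9 and 22 were lower. Gm31663 had 1.61 to 5.27 FPKM in heart and at most 0.192 FPKM elsewhere (at least 7.28), Gm6852 had 0.827 to 4.44 against at most 0.233 FPKM (at least 6.22), and Gm5693 had 7 to 38 reads in each heart library and none in the other 18 (at least 4.96). Lower than each tissue were Gm27038, with no read in any heart library (at most -2.44), AC099860.1 (-2.47 ± 0.38) and Gm16042 (-1.34 ± 0.16). Of 2890 genes of other classes 292 were higher (10.1%) and 591 lower (20.4%).

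The coding genes furthest below the other tissues had to be expressed in brain, cerebellum and colon alike, since the rule asked for 10 FPKM on average in each. *Calb2*, the calcium buffer calretinin, had no read in 3 heart libraries and at most 0.167 FPKM in the others, against 13.5 to 92.8 FPKM in brain, 87.9 to 139 FPKM in cerebellum and 9.14 to 12.9 FPKM in colon, a difference of at most -8.63. *Rims1*, a scaffold of the synaptic active zone, had 0.0379 to 0.304 FPKM in heart and 15.3 FPKM (median) in colon and 137 to 327 FPKM in cerebellum (-9.29 ± 0.34, edgeR adjusted p = 1.42e-16). *Chgb*, a granin of secretory vesicles, had at most 0.174 FPKM in heart and 8.78 to 90.9 FPKM elsewhere (-8.55 ± 0.37). All 5 heart libraries lay below all 18 others in these 3 genes.

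The other 5 were *Ttr* (the thyroxine carrier transthyretin, -8.61 ± 1.26), *Kcnk1* (a potassium leak channel, -8.05 ± 0.24), *Pllp* (the myelin protein plasmolipin, -6.98 ± 0.37), *Ppp1r1b* (the phosphatase inhibitor DARPP-32, -6.61 ± 0.50) and *Kcnma1* (the BK channel, -6.27 ± 0.36). *Ttr* is made by the choroid plexus, and it ran from 15.7 to 1535 FPKM among the brain libraries, which its standard error reflects. For *Ppp1r1b* female heart replicate 3 had 4.83 FPKM and the other hearts 0.107 to 0.617 FPKM, and the difference was -7.36 without it. Of the lncRNAs, Gm28294 (opposite *Ptprn*) had no read in any heart library and 1.17 to 152 FPKM elsewhere, and Gm45875 (opposite *Kcnk1*), Bcas1os1 and Bcas1os2 (opposite *Bcas1*) had at most 3 reads in a heart library. Their differences were at most -6.64, -8.04, -7.75 and -6.98. An exon of an opposite coding gene was overlapped by 76 of the 119 lncRNAs that were lower than each tissue (63.9%, against 35.9% of all lncRNAs tested).

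The lists of the compared tissues' own cells gave the other side, where 35.9% of all coding genes were lower than the mean. Of 16 synaptic genes none was higher and 15 were lower in heart (median -5.31, or -7.77 against brain and -0.72 against colon), of 12 glial genes 11 were lower (median -6.07, or -5.26 at the bound), and of 18 colon epithelial genes 12 were lower and 2 higher (median -3.53, or -9.92 against colon, 0.77 against brain and 0.54 against cerebellum). *Snap25*, a synaptic fusion protein, had 0 to 0.324 FPKM in heart against 391 to 1013 FPKM in brain and cerebellum (-10.22 ± 0.36). *Gfap*, the astrocyte filament, had 0.0589 to 0.219 FPKM in heart against 90.5 to 257 FPKM (-7.36 ± 0.34). *Cdh1*, the epithelial cadherin, had 0.0439 to 0.566 FPKM in heart against 140 to 209 FPKM in colon (-6.99 ± 0.36). Smooth muscle genes were lower than the mean in 6 of 9 and higher in 3 (median -1.37, or -5.61 against colon, 1.78 against brain and 1.48 against cerebellum).

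Genes of endothelium and of mesothelium were higher in heart (brain and cerebellum have no mesothelium), and those of fibroblasts and leukocytes depended on the tissue compared. All 8 endothelial genes were higher than the mean (median 3.29) and 7 than each tissue. *Pecam1*, the endothelial adhesion molecule, had 31.1, 61.3 and 55.4 FPKM in female and 72.1 and 41.0 FPKM in male hearts and at most 16.6 FPKM elsewhere (3.86 ± 0.15). The 6 mesothelial genes were all higher than each tissue (median 5.13), where 10.9% of all coding genes were. Of 8 fibroblast genes 7 were higher than the mean (median 1.92, but -0.92 against colon), or 6 without female heart replicate 3 and 4 under library totals. *Dcn*, the matrix proteoglycan decorin, was the 1 that was higher than each (324 to 773 FPKM, at most 390 FPKM elsewhere in colon, 3.36 ± 0.12 on the log2 scale). *Col3a1*, type III collagen, had 66.2 to 109 FPKM in 4 heart libraries, 285 FPKM in female heart replicate 3 and 240 to 352 FPKM in colon, and was lower in heart than colon (-0.98). Leukocyte genes were higher than the mean in 7 of 12 and lower in 1, or in 3 without female heart replicate 3 (median 1.15, but -0.59 against colon), and none was higher than each tissue. Of 15 genes of the cell cycle and DNA replication 2 were higher, 5 lower and 8 not called (median -0.46), and under library totals none was higher and 12 were lower. Over all coding genes 35.4% were higher and 35.9% lower, so that the share lower in this list was near the background.

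How far the single apart library moved these results depended on what was asked. Leaving female heart replicate 3 out changed few calls of coding genes against the mean. Of those tested both ways, 5967 were higher with it and 6049 without it (35.9% of those tested), and 5777 were shared. Lower were 6055 and 6265 (37.2%), and 5890 were shared. Relative to their number, more lower calls moved in the other classes. They went from 1136 to 1247 for lncRNAs (1079 shared), 202 to 259 for pseudogenes (178 shared) and 591 to 733 for the rest (552 shared). Higher calls there went from 897 to 871, 219 to 211 and 286 to 258. No gene was called in one direction with it and in the other without it. Calls against each tissue with no overlap moved far more. They rose from 1834 to 2920 upward (17.3% of those tested without it) and from 1213 to 1739 downward (10.3%), and of the 1831 upward genes tested both ways 1819 were kept. Most of the 1101 genes that were gained had already been called against each tissue, 997 of them, and had lacked only the separation from every other library. Without asking for no overlap the count went from 3218 to 3500. For lncRNAs the counts rose from 312 to 414 (9.27%) and from 119 to 175 (3.92%). Leaving out any other heart library gave 1975 to 2026 coding genes upward and 1165 to 1203 downward.

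Moves of single differences by more than 0.5 went in one direction, and smaller ones went both ways. With the library included, 1540 genes had a log2 difference more than 1 above its value without it, 679 of them coding, and none had a difference more than 0.5 below it. Such counts were not particular to it: leaving out male heart replicate 1 or 2, which leaves 1 male heart, moved 1344 and 1241 genes by more than 1 in either direction, and female heart replicate 1 or 2 moved 393 and 323. The median absolute move was 0.11. Group means in this fit are means of counts and not of logarithms. The 12 leading cardiac genes fell by 0.11 (*Nppb*) to 0.21 (*Myl2*) with the library included. In FPKM, the library had a median of 0.905 times the mean of the other 4 over the 1834 genes higher than each tissue. By FPKM it was the lowest heart library in 811 of them and the highest in 589. FPKM is scaled to library totals, and its TMM factor was 1.08 against 0.580 to 0.695 in the other hearts. On the TMM scale of the calls it therefore lay further below them.

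The 10 coding genes that moved most were *Lep*, *Ces1f*, *Tshr*, *Klb*, *Lgals12*, *Pck1*, *Tmem45b*, *Adrb3*, *Cfd* and *Orm1*, among 5510 that reached 10 FPKM in a heart library, and most are known from adipocytes. They were taken by the move of the fitted difference, which for genes without reads in the remaining hearts, such as *Lep*, rests on a fitted floor, so their order is not fixed. *Cfd*, which encodes adipsin, had 2313 FPKM in female heart replicate 3 and 0.451 to 4.40 FPKM in the other hearts. Its difference of 5.04 ± 1.70 passed the test with the library (edgeR adjusted p = 0.0178) and was 1.24 without it (adjusted p = 0.149). *Pck1*, the enzyme of gluconeogenesis and glyceride synthesis, had 199 FPKM in it and 0.0313 to 0.408 FPKM in the others. *Lep*, the satiety hormone leptin, had 25.8 FPKM in it and no read in the other 4. In the list of 12 adipocyte genes 8 were higher than the mean with it and 4 without it, where the share over all coding genes was 35.4% with it and 35.9% without it, so that the count without it was near the background. The median fell from 4.11 to 1.10, with *Fabp4*, a lipid carrier that endothelium also makes (358 to 495 FPKM in the 4, 2291 FPKM in it, 8.57 and 8.19), and *Cidea*, a lipid droplet protein (15.0 to 21.4 and 81.0 FPKM, 3.81 and 3.54), staying called on both counts. With all heart libraries the list's median was 6.10 against brain and 6.15 against cerebellum, but -1.44 against colon. Colon libraries summed to 197 to 1066 FPKM on this list. *Adipoq*, the adipokine adiponectin, had 695 FPKM in it and 0.0517 to 1.74 FPKM in the others, and its difference did not pass the test (adjusted p = 0.248).

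Of 8 tested atrial markers 5 were higher than the mean and 2 lower, with and without the library, and the median was 5.90 with it and 3.95 without it. Of all coding genes 35.4% were higher and 35.9% lower with it, and 35.9% and 37.2% without it. The 2 lower ones were *Dkk3* (-1.81 ± 0.51) and *Nr2f1* (-2.92 ± 0.21), and *Nr2f2* was at -0.12 and not called. *Myl7*, the atrial light chain, had 9.83, 76.4 and 1989 FPKM in female and 60.4 and 6.66 FPKM in male hearts, so that the other 4 libraries already spread more than 10-fold. Its log2 difference was at least 10.33 with all 5 libraries. *Nppa*, the precursor of atrial natriuretic peptide, had 55.7, 90.1 and 2770 FPKM in female and 76.7 and 41.0 FPKM in male hearts (9.85 ± 0.62, and 8.32 without it). *Sln*, sarcolipin, which regulates the atrial calcium pump, had 135 FPKM in it and 0 to 2.59 FPKM in the others (6.54 ± 1.04 and 4.24), *Myl4* 303 FPKM against 0.266 to 13.3 FPKM (5.35 ± 0.71 and 3.67) and *Mybphl* 91.7 against 0.290 to 2.44 FPKM (6.45 ± 0.81 and 4.50). Female replicate 2 and male replicate 1 were above the remaining 2 libraries for each of these 5 genes. The gap junction gene *Gja5*, found in atria, conduction tissue and arteries, was called higher than the mean with the library (1.02 ± 0.40, adjusted p = 0.0331) at 6.13 FPKM against 0.389 to 1.05 FPKM in the others, and was at 0.25 without it.

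**Figure D5:**
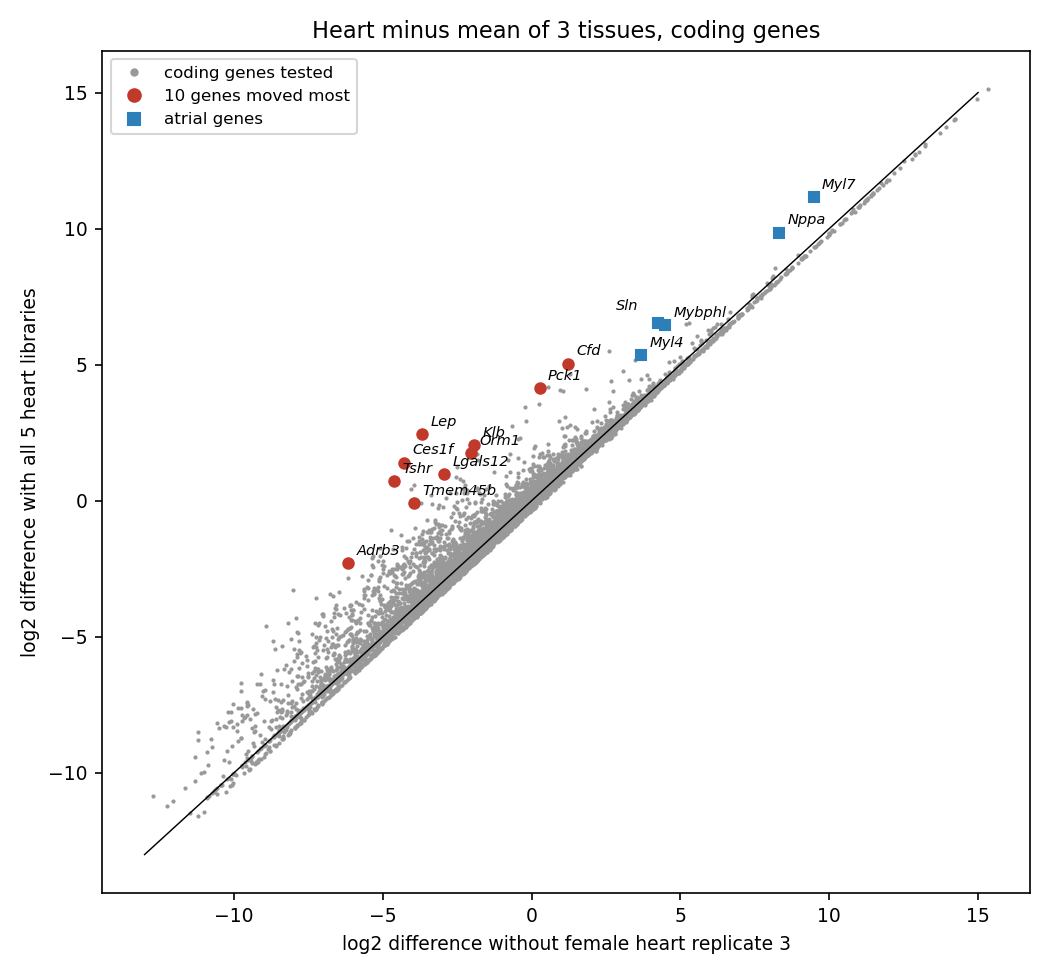
Log2 difference of each coding gene with all 5 heart libraries (vertical) against that without female heart replicate 3 (horizontal), with the 10 genes moved most (red) and 5 atrial genes (blue). No gene lies more than 0.5 below the diagonal, and 679 lie more than 1 above it, such as *Cfd* at 5.04 against 1.24 and *Nppa* at 9.85 against 8.32.

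Of lncRNAs, Gm48832, Gm13544, Lncbate1, Gm36860 and Gm15883 moved most among 1672 that reached 1 FPKM in a heart library. They were chosen by the same move, and their order is likewise not fixed. Each had no read in 4 heart libraries and 1.18 to 6.85 FPKM in female heart replicate 3. Lncbate1, named for brown adipose tissue, had 4.31 FPKM there and at most 0.924 FPKM in the other tissues.

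The sexes were pooled in all of the above. The heart difference itself differed between females and males in 1 of 25741 genes, *Jakmip1* (log2 difference of 4.80 ± 0.73, female minus male, edgeR adjusted p = 0.0343), which had 0.0607 to 0.293 FPKM in female hearts, 0 and 0.00971 FPKM in male hearts and 1.08 to 12.6 FPKM elsewhere. Without female heart replicate 3 its adjusted p was 0.141. An unadjusted p below 0.05 was given to 1965 genes, and to 1327 without that library. DESeq2 called 59 genes with all libraries, among them *Adipoq*, *Cfd*, *Lep*, *Car3* and *Adrb3*, which stood far highest in female heart replicate 3. These counts thus cannot be read apart from that library.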

How the data were processed

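The authors deposited a table of raw read counts per gene, made from rRNA-depleted libraries of a strand-specific kit. The submitters' processing notes list FastQC 0.11.8, MultiQC 0.9, HISAT2 2.0.5, featureCounts 1.6.3 and mm10. The paper's methods name another aligner for human data and none for these libraries, and state that only uniquely mapped reads were kept for quantification. Loci resolved by long reads have their own identifiers, and some merge several genes. Of its 29 count columns the 23 of heart, brain, cerebellum and colon were used. The members and lists were chosen with earlier results of these data known.

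Counts were tested with edgeR 4.0.16 (R 4.3.3): filterByExpr by group, TMM, 8 means of tissue and sex, robust glmQLFit and glmQLFTest, Benjamini-Hochberg adjustment over 25741 genes, calls at 0.05. The contrast is the mean of both heart means minus the mean of the other 6. Where a group had no reads, a bound was computed with every group under 3 reads set at 3. On simulated counts for this contrast (25741 genes), 54% of 2-fold and 83% of 4-fold changes were recovered, and 2.84% of calls were false. There 100 genes were changed at each fold, and every other gene had the same mean in all groups. Far more genes differ in the data, so these rates do not carry over to the calls above.

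Named were the 12 coding genes and 6 lncRNAs furthest above, and the 8 and 4 furthest below, each tissue (heart, or each other tissue, at 10 or 1 FPKM on average), the 10 coding loci highest in heart, 3 pseudogenes each way, the 10 coding genes and 5 lncRNAs that the apart library moved most, and members that illustrate 31 lists (439 of 454 symbols found) and 20 pairs. Alternatives were DESeq2 1.42.0, limma 3.58.1 voom, and other scalings, filters and designs. Intervals cover the spread between libraries only. Some genes counted in the lists are not reported here by name.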

Additional observations from a re-analysis of the deposited data

Results flagged for a closer look

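In 153 sets of 5 heart values (genes and marker lists named above), 58 had a sample whose gap to the nearest other exceeded Dixon's 95% value of 0.71 of the range, and in 54 it was female heart replicate 3. Chance gives about 1 in 20 such sets. The genes were named partly for their behaviour in this library, so the count is a description.

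Female heart replicate 3 was the highest of the 5 for adipocyte markers and the genes it moved most, with *Lep* at 25.8 FPKM, *Ces1f* at 23.4, *Tshr* at 10.1, *Klb* at 11.2, *Lgals12* at 28.1, *Pck1* at 199, *Tmem45b* at 14.0, *Adrb3* at 17.8, *Cfd* at 2313, *Orm1* at 53.7, *Adipoq* at 695, *Fabp4* at 2291, *Cidea* at 81.0, *Car3* at 2662 and *Acaca* at 190 FPKM. The lncRNAs Gm48832 (1.85 FPKM), Gm13544 (1.77), Lncbate1 (4.31), Gm36860 (6.85) and Gm15883 (1.18) were highest in it as well. It was the highest for the atrial genes *Myl7* (1989 FPKM), *Myl4* (303), *Mybphl* (91.7), *Sln* (135), *Nppa* (2770) and *Gja5* (6.13), for the natriuretic peptide receptor *Npr1* (12.8) and for the matrix genes *Col3a1* (285) and *Dcn* (773). The same held for genes that were lower in heart than the mean, namely *Rims1* (0.304 FPKM), *Pllp* (0.596), *Ppp1r1b* (4.83), *Kcnma1* (0.784), *Slc1a3* (22.5), *Cdh1* (0.566), *Meg3* (1.89), *Fendrr* (0.138) and *Malat1* (1019), and for the non-muscle forms *Cox6a1* (150), *Ckmt1* (3.09), *Rpl3* (291) and *Eno1* (146 FPKM). It was the lowest for *Myl3* (2691 FPKM), *Ckmt2* (609), Gm49130 (288) and *Adra1b* (4.09 FPKM). Its summed markers stood apart for leukocytes (1459 FPKM), cardiomyocytes (8234), atrial cardiomyocytes (5339), adipocytes (8969), mesothelium (211), fibroblasts (1357) and lung epithelium (37.4 FPKM), and its 50 most counted genes took 28.1% of reads.

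In other libraries, Gm15543 was highest in female heart replicate 1 (221 FPKM), and 3 lncRNAs at the floor of detection had their only heart reads in 1 library, Gm45875 (0.105 FPKM) and Bcas1os2 (0.105) in female replicate 1 and Bcas1os1 (0.0824) in male replicate 1.

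The heart difference of *Jakmip1* differed between the sexes by a test of the interaction (4.80 on the log2 scale, female minus male), on heart levels of at most 0.293 FPKM.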

How the results depend on the processing

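Of the recomputed counts and shares 429 stayed near the reported value (within 1.5 times, or 1 SD for shares) and 49 moved. Of the recomputed gene differences 4797 kept sign and call, 36 gained and 40 lost a call and 42 changed sign. Scaling by library totals gave 3433 coding genes higher and 9092 lower, 1742 lncRNAs lower, 128 pseudogenes higher and 363 lower, and 150 genes of other biotypes higher and 998 lower. A test for log2 differences beyond 1 called 2675 and 3183 coding genes, 552 and 634 lncRNAs, 114 and 97 pseudogenes, 134 and 307 of other biotypes, and 763 coding genes lower than each tissue. limma voom with sample weights, which gave female heart replicate 3 a weight of 0.147, called 1811 lncRNAs, 430 pseudogenes and 1081 of other biotypes lower. Without a filter 363 pseudogenes were higher, and with 1 CPM in 5 libraries 86 were higher, 95 lower and 382 of other biotypes lower. Genes that differed between the sexes numbered 0 under library totals, without mitochondrially encoded genes, beyond a log2 difference of 1 and under either replicate block, 2 under voom and without a filter, and 59 under DESeq2. The cause was not tested.

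Leaving out 1 library at a time gave 1839 to 2920 coding genes higher than each tissue and 1165 to 1739 lower, 309 to 414 and 115 to 175 lncRNAs, 147 to 259 pseudogenes lower, 472 to 733 of other biotypes lower, and 0 to 21 genes that differed between the sexes (21 without female heart replicate 2). A male heart left out leaves 1 male library, assumed to vary like the other groups. Over these fits the log2 differences of genes that turned ran from -3.67 to 2.76 for *Lep*, -4.28 to 1.91 for *Ces1f*, -4.62 to 1.26 for *Tshr*, -1.92 to 2.37 for *Klb*, -2.93 to 1.31 for *Lgals12*, -3.95 to 0.45 for *Tmem45b*, -2.03 to 2.07 for *Orm1*, -2.33 to 2.25 for Gm48832, -4.00 to 0.30 for Lncbate1, -2.70 to 1.39 for Gm36860, -0.20 to 3.85 for *Car3* and -1.75 to 0.57 for *Acaca*. The other 4 hearts had no read of *Lep*, Gm48832, Lncbate1 or Gm36860 and reads of *Ces1f*, *Orm1* and *Tshr* in 1 library each, so the low ends for these 7 are fitted values on groups without reads, and not measured differences.

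Under voom *Lep* was at -1.36, *Ces1f* -3.00, *Tshr* -3.245, *Klb* -1.10, *Lgals12* -2.25, *Orm1* -0.44, Gm48832 -0.50, Gm36860 -0.84 and *Acaca* -1.48. With brain and cerebellum weighted as 1, *Ces1f* was at -0.69 and Gm36860 at -0.29. With 4 tissue means without sex, *Tmem45b* was at 2.24 and *Adrb3* at 2.65, under DESeq2 Lncbate1 at 0.63, and under library totals *Mef2c* at -0.47 and *Acaca* at -0.14. Same-numbered libraries seldom deviated together (33 pairs, 4 with a correlation over 0.1, median 0.015, range -0.38 to 0.37). Pairs by library code gave 5 of 30 over 0.1 (median 0.024, highest 0.42). Such correlations over all genes cannot decide whether libraries share an animal. A replicate block gave 7134 higher and 7716 lower genes against 7422 and 7984, and *Acaca* at -0.24, and a block by library code put *Tshr* at -0.44, *Lgals12* -0.40, Gm36860 -0.10 and *Acaca* -0.61.

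At this depth the median standard error of a log2 difference was 0.16 for coding genes, 0.48 for lncRNAs and 0.65 for pseudogenes.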

Other observations

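The gonads of the same series were not part of the comparison, and heart is not the highest tissue for every gene that exceeds brain, cerebellum and colon. Of the 1834 coding genes that were higher than each of these, 551 had a higher mean FPKM in ovary than in heart and 328 a higher one in testis. These are means of 3 libraries each, given without a test.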
